A study of Rattus norvegicus with 9 samples.

Results

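The T cell receptor complex and the signalling proteins next to it were examined in rat left ventricle as 10 genes: Cd3d, Cd3e, Cd3g, Cd247, Cd8a, Cd2, Cd5, Cd28, Lck and Zap70. They were taken by gene name from the 35843 genes of the deposited table, where each name had 1 row. The hearts came from 9 adult male Sprague-Dawley (SD) rats at day 28, with 3 rats in each of 3 groups. Rats of group MI had their left anterior descending artery ligated permanently and received saline by daily gavage. Rats of group MI + DAPA (1st d) had the same ligation and received dapagliflozin (DAPA), an inhibitor of the sodium-glucose cotransporter SGLT2, at 1 mg/kg by daily gavage from day 1. Rats of group Sham were operated on without ligation and received saline. According to the study's methods, molecular work drew mainly on the border of the infarct with the scar cut away, and on the matching region in group Sham. For the sequencing itself its methods name only left ventricles, while its results speak of infarct myocardium. The exact site sampled for these libraries is thus not settled.

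The antigen-binding chains of the T cell receptor have no signalling tail of their own and reach the cell surface only together with the CD3 chains and the zeta chain. When antigen is bound, the kinase Lck, carried by the coreceptors CD4 and CD8, phosphorylates the tails of CD3 and zeta, ZAP-70 docks there, and the signal passes on to adaptors such as LAT. CD2 and CD28 strengthen this signal and CD5 dampens it. T cells are few in the healthy heart and are known to enter the myocardium and its draining lymph nodes after infarction.

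The genes of the 3 CD3 chains lie next to one another, Cd3g and Cd3d on opposite strands, followed by Cd3e. The promoter windows of these genes and of Cd247, the genes on which the results below turn, are shown as RefSeq gives them for GRCr8, each from 250 bases before to 50 bases after the gene's start, with the letters AGGAAG or their reverse CTTCCT in capitals. These letters are the core that ETS transcription factors of lymphocytes can bind.
Cd3e, chr8:54211721-54212020, minus strand: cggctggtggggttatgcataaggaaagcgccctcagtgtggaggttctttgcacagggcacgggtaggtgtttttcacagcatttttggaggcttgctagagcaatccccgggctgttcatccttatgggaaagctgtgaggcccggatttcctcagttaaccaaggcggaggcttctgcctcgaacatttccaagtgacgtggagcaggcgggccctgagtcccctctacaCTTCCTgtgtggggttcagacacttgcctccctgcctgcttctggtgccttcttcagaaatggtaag
Cd3d, chr8:54185269-54185568, plus strand: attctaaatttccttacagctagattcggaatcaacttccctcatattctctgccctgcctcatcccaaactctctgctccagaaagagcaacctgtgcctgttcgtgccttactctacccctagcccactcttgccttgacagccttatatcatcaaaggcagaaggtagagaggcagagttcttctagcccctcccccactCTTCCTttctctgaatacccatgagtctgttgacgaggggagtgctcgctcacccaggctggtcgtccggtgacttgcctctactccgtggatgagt
Cd3g, chr8:54183869-54184168, minus strand: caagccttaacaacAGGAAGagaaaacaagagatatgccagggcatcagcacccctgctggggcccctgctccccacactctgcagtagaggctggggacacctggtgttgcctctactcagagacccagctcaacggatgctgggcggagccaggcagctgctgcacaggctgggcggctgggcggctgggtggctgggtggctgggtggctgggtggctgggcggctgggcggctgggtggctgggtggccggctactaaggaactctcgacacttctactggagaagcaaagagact
Cd247, chr13:80576019-80576318, plus strand: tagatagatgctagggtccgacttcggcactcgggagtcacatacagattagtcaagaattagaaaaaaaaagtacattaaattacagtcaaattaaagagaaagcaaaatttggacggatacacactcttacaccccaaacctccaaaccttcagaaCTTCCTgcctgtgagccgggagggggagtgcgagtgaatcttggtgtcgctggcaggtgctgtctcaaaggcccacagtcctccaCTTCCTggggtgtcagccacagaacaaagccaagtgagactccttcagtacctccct

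All 10 genes matched, with 11 windows since Lck has a pair of starts. AGGAAG was found, on either strand, in windows of 7 of the 10 genes (Cd3d, Cd3e, Cd3g, Cd247, Cd5, Lck and Zap70) and in 34.5% of the 33469 rat windows. TGTGGT, a RUNX core, was found in Cd2, Cd28 and Lck and in 17.3% of all windows. CAGCTG, an E-box, was found in Cd3g, Cd2 and Cd5 and in 15.1% of all windows. CTTTGA, a TCF/LEF core, was found in Cd3d, Cd247 and Zap70 and in 16.1% of all windows. AGATAA, a core for factors of the GATA family, was found in Cd28 and in 11.6% of all windows. TATAAA was found in 0 of the 11 windows and in 14.2% of all windows. Both strands were searched for each motif, and sites of different motifs overlapped 0 times in the 11 windows. No measurement here bears on whether any factor binds these letters.

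Expression was given as FPKM (fragments per kilobase of gene, over a denominator for each library), 1 value per rat, from which the reads behind each value were recovered as whole numbers. The denominators did not follow the total of recovered reads: relative to Sham replicate 1 (16899773 reads) the denominator of MI replicate 1 (15565791 reads) was 1.85, and they ran from 0.841 to 1 in group Sham and from 1.53 to 1.85 in the other rats. The libraries held 13597239 to 17210909 recovered reads. Outside the mitochondrial genome, which took 61.1% to 66.9% of reads in group Sham and 7.07% to 32.0% in the other rats, there were 5702454 to 6570698 reads in group Sham and 11440726 to 13171891 in the other 6 rats. Group Sham was therefore the group with the fewest reads behind these genes. MI replicate 2 stood apart in these genes: it was the highest of the 9 rats in 10 of 10, against 18.9% of the 14157 genes that reached an FPKM of 1 in 3 or more rats. Results are given with and without it. Its cardiomyocyte markers were also the lowest of the 9 rats in 7 of 8 genes. Of 10 T cell markers 8 were found, and their summed FPKM was 3.32 to 9.83 in group Sham, 8.16 to 86.3 in group MI and 5.64 to 7.68 in group MI + DAPA (1st d). Cd3d, Cd3e, Cd3g, Cd5 and Cd28 are among these markers, so the sums are not separate evidence beside the 10 genes. The 2 markers not found, Trac and Trbc2, were not analysed here.

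Cd3e, the CD3 epsilon chain that pairs with both CD3 delta and CD3 gamma, was higher after infarction and, with DAPA, lower than after infarction alone. It was at 0.191, 1.36 and 0.0758 FPKM in the Sham rats (replicates 1 to 3), which rested on 3, 21 and 1 reads. It was at 1.69, 19.5 and 4.70 FPKM in the MI rats and at 0.404, 1.29 and 1.11 FPKM in the rats given DAPA. All 3 MI rats lay above all 6 other rats, and MI replicate 2 lay far above the other MI rats. The group means were 0.544 ± 0.713 FPKM in group Sham, 8.61 ± 9.51 FPKM in group MI and 0.933 ± 0.467 FPKM with DAPA (SD, n = 3 each).

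Cd3g, the gamma chain, was at 2.63, 4.58 and 3.31 FPKM in the Sham rats, at 3.52, 33.7 and 7.69 FPKM in the MI rats and at 2.75, 1.82 and 3.49 FPKM in the rats given DAPA. MI replicate 1 lay within the range of group Sham and just above the highest DAPA-treated rat. Cd3d, the delta chain, was at 0, 3.11 and 0.630 FPKM in the Sham rats, at 1.36, 17.3 and 4.49 FPKM in the MI rats and at 1.93, 1.64 and 0.613 FPKM in the rats given DAPA. Here MI replicate 1 lay below 1 Sham rat and below 2 DAPA-treated rats. Cd247, the zeta chain that carries most of the tyrosines phosphorylated by Lck, was at 0.336, 0.628 and 0.0665 FPKM in the Sham rats, at 1.09, 8.46 and 2.35 FPKM in the MI rats and at 1.17, 0.875 and 0.680 FPKM in the rats given DAPA. For Cd247 both infarcted groups lay wholly above group Sham, while DAPA replicate 1 lay above MI replicate 1.

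**Figure D1:**
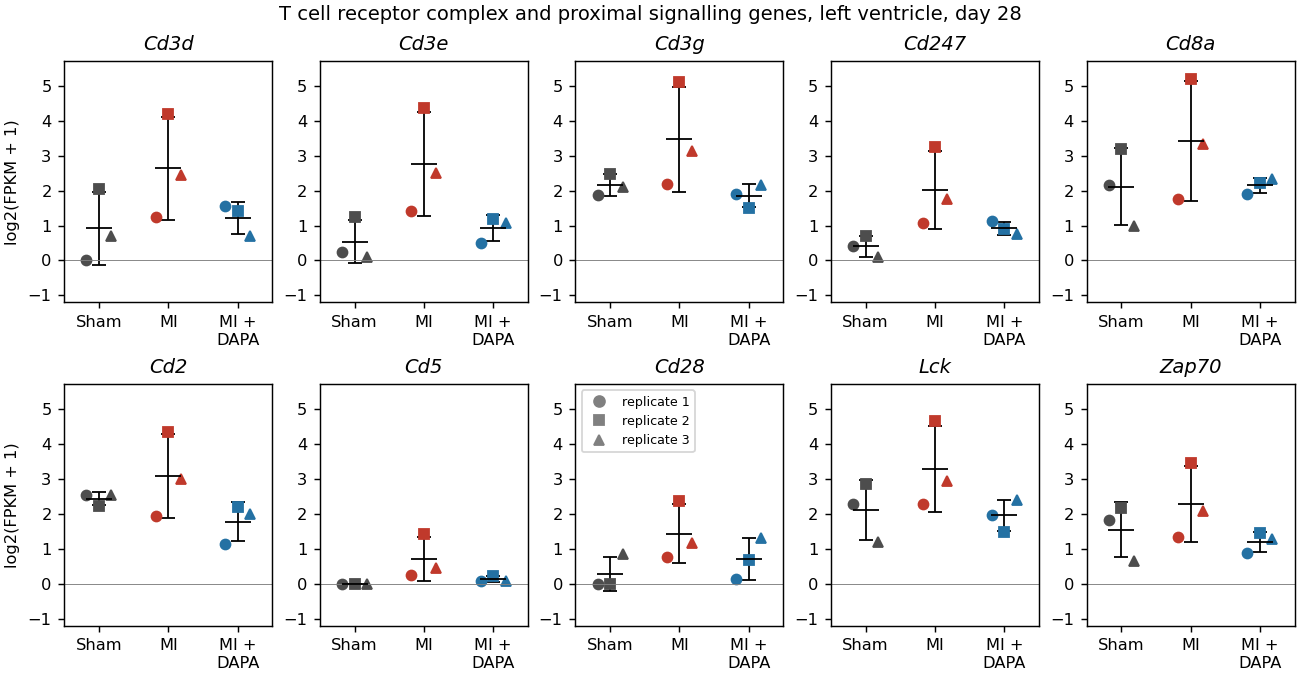
Level of each of the 10 genes on the log2(FPKM + 1) axis in group Sham (grey), group MI (red) and group MI + DAPA (1st d) (blue), with 1 symbol per rat, the mean as a horizontal bar and the SD (n = 3) as error bars. MI replicate 2 (red square) is the highest point in all 10 panels, and MI replicate 1 (red circle) lies above every Sham rat only in Cd3e, Cd247 and Cd5, where the Sham rats had 0 reads.

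Among the coreceptor and accessory genes, Cd8a, the alpha chain of the CD8 coreceptor, was at 3.44, 8.07 and 0.982 FPKM in the Sham rats, at 2.35, 35.5 and 8.98 FPKM in the MI rats and at 2.71, 3.63 and 4.02 FPKM in the rats given DAPA. MI replicate 1 lay below 2 of the Sham rats and below all DAPA-treated rats. Cd2, an adhesion receptor of T and NK cells, was at 4.80, 3.69 and 4.77 FPKM in the Sham rats, at 2.81, 19.1 and 6.91 FPKM in the MI rats and at 1.20, 3.54 and 3.00 FPKM in the rats given DAPA. For Cd2 all DAPA-treated rats lay below all Sham rats. Cd28, the main costimulatory receptor of resting T cells, was at 0, 0 and 0.800 FPKM in the Sham rats, at 0.689, 4.17 and 1.23 FPKM in the MI rats and at 0.0949, 0.585 and 1.47 FPKM in the rats given DAPA. DAPA replicate 3 lay above 2 of the MI rats in this gene.

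Cd5, an inhibitory receptor of T cells and a subset of B cells, had 0 reads in each of the 3 Sham rats, which allows a level of up to 0.249, 0.254 and 0.296 FPKM. It was at 0.180, 1.67 and 0.362 FPKM in the MI rats, on 4, 34 and 8 reads. It was at 0.0526, 0.162 and 0.0480 FPKM in the rats given DAPA, on 1, 3 and 1 reads. Taken over each group, group MI was at least 8.07-fold higher than the 3 reads that a count of 0 allows over group Sham. MI replicate 2 gave 34 of the 46 reads in group MI, and without it this bound was 3.07-fold, on 12 reads. Singly, MI replicate 1 lay below the level that 0 reads allow in each Sham rat. Group MI + DAPA (1st d) was not above that level, so no fold is given for it. Floors of this kind cover counting error only.

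The kinases overlapped between all 3 groups. Lck, which starts the signal, was at 3.82, 6.20 and 1.26 FPKM in the Sham rats, at 3.84, 24.1 and 6.61 FPKM in the MI rats and at 2.92, 1.80 and 4.21 FPKM in the rats given DAPA. Zap70, which docks on the phosphorylated tails, was at 2.54, 3.47 and 0.563 FPKM in the Sham rats, at 1.49, 9.93 and 3.17 FPKM in the MI rats and at 0.847, 1.71 and 1.42 FPKM in the rats given DAPA. In both kinases MI replicate 1 lay inside the range of group Sham, and it also lay below the highest DAPA-treated rat.

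The 10 genes kept 1 order within group MI, with replicate 2 above replicate 3 above replicate 1 in 10 of 10 genes, against 16.9% of the 14157 genes. The ratio of the highest to the lowest MI rat was 6.05 (Cd28) to 15.1 (Cd8a), with a median of 8.53, where the median of all genes was 1.41. Replicate 2 exceeded replicate 3 by 2.76-fold to 4.61-fold (all genes, median ratio 1.02), and replicate 3 exceeded replicate 1 by 1.72-fold to 3.82-fold (all genes, 0.991). In group MI + DAPA (1st d) the median ratio of highest to lowest rat was 2.65 over the 10 genes. In group Sham it was 6.16 over the 7 genes with reads in every rat. The rats of group MI thus differed among themselves in these genes more than the rats treated with DAPA did, with Cd28 as an exception (6.05 in group MI, 15.5 in group MI + DAPA (1st d), where 1 rat had 2 reads).

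The first comparison asked how infarction changed these genes. Of the 10 genes, 8 reached the FPKM of 1 in 3 or more of the 6 rats that testing required (Cd5 and Cd28 did not), and Cd247 passed only through group MI. By limma on log2(FPKM + 1), 2 of the 8 were called higher in group MI (unadjusted p below 0.05 with a log2 fold change beyond 1 in size), and 0 were called lower. In this comparison 12.1% of all 13485 genes tested were called higher and 10.3% lower. Cd3e was higher by 2.23 on the log2 scale (SE 0.71, Benjamini-Hochberg adjusted p = 0.0435 by limma). Cd247 was higher by 1.61 (SE 0.53, Benjamini-Hochberg adjusted p = 0.0479 by limma). Calls at this adjusted threshold took 11.5% of all genes tested in the same direction. These folds understate the change of such low genes, whose group means in FPKM differed by 15.8-fold for Cd3e and by 11.6-fold for Cd247. Without MI replicate 2 the means differed by 5.88-fold and 5.02-fold. With voom on the recovered reads neither gene was called, at log2 fold changes of 3.85 for Cd3e (SE 2.25, Benjamini-Hochberg adjusted p = 0.211) and 3.11 for Cd247 (SE 1.60, adjusted p = 0.161).

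The other 6 genes had log2 fold changes above 0 that did not pass: 1.72 for Cd3d (SE 0.80), 1.32 for Cd3g (SE 0.68), 1.31 for Cd8a (SE 0.89), 1.19 for Lck (SE 0.66), 0.73 for Zap70 (SE 0.60) and 0.65 for Cd2 (SE 0.54). Their Benjamini-Hochberg adjusted limma p-values ran from 0.129 (Cd3d) to 0.376 (Cd2). The median of the 8 was 1.32, against -0.01 over all genes tested. Groups MI and Sham did not overlap, with MI higher, in 2 of the 9 genes with reads in group Sham (Cd3e and Cd247), and in 27.1% of all genes tested. Cd3e remained called without MI replicate 2, at 1.44 (SE 0.48), when the median of the 7 genes then tested was 0.50. Its call was lost without Sham replicate 1 (2.09) or Sham replicate 3 (2.02), where the unadjusted p passed 0.05. Cd247 lost its call without Sham replicate 3 (1.46) and was not tested without any 1 MI rat, since it then failed the filter. In bulk tissue a change in the number of T cells and a change in the RNA of each T cell cannot be told apart.

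**Figure D2:**
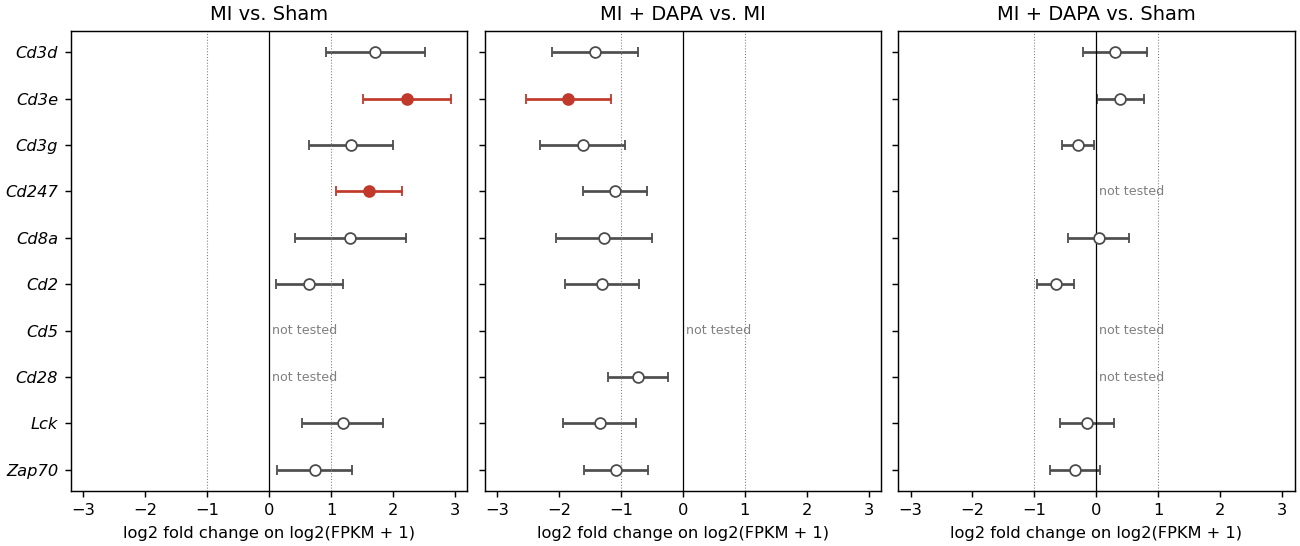
Log2 fold change on log2(FPKM + 1) with its limma SE for each gene in the 3 comparisons, filled red where the gene was called (unadjusted p below 0.05, beyond the dotted lines at 1 and -1). All 8 genes tested lie above 0 in MI vs. Sham, all 9 lie below 0 in MI + DAPA vs. MI, and in MI + DAPA vs. Sham 3 lie above and 4 below 0.

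The next comparison asked how DAPA after infarction changed the same genes. It uses the same 3 MI rats as the comparison with group Sham, so the directions of the 2 comparisons are not independent of each other. Of the 9 genes tested (all but Cd5), limma called 1 lower in group MI + DAPA (1st d), where 1.11% of all 13251 genes tested were called lower, and 0 higher, where 0.951% of all genes were. This was Cd3e, lower by 1.85 on the log2 scale (log2 fold change -1.85, SE 0.69). Its Benjamini-Hochberg adjusted p by limma was 0.558, the smallest value that any gene reached in this comparison, and 0 of the 13251 genes (0.0%) passed an adjusted p of 0.05. In FPKM, the mean of Cd3e in the DAPA-treated rats was 0.108 times that of group MI.

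The log2 fold change was also below 0 in the other 8 genes, without passing: -1.61 for Cd3g (SE 0.69), -1.42 for Cd3d (SE 0.70), -1.34 for Lck (SE 0.59), -1.31 for Cd2 (SE 0.60), -1.27 for Cd8a (SE 0.78), -1.09 for Cd247 (SE 0.52), -1.08 for Zap70 (SE 0.51) and -0.73 for Cd28 (SE 0.48). Their Benjamini-Hochberg adjusted limma p-values lay between 0.558 and 0.617. The median of the 9 was -1.31, against -0.02 over all genes tested. The groups did not overlap, with DAPA lower, in 3 of the 10 genes (Cd3e, Cd3g and Cd5) and in 7.16% of all genes tested. In Cd5 the nearest rats of the 2 groups stood at 4 and 3 reads. Without MI replicate 2, 8 genes were tested and all 8 remained below 0, at -0.39 to -1.05 with a median of -0.64. Cd3e remained called there (-1.05, SE 0.39), and its mean in the DAPA-treated rats was then 0.292 times that of the other MI rats. Its call was lost without MI replicate 3 (-1.97), DAPA replicate 1 (-1.63), DAPA replicate 2 (-1.98) or DAPA replicate 3 (-1.92), each time with an unadjusted p over 0.05. It was lost with voom too, at a log2 fold change of -2.65 (Benjamini-Hochberg adjusted p = 0.587). Without MI replicate 1, the lowest MI rat in all 10 genes, 8 of the 9 were called lower, where 238 of all 12969 genes tested were. The count thus rested on which MI rat was left in. Cardiomyocyte markers moved the other way in this comparison: all 8 had a log2 fold change above 0, with a median of 1.35, and Myl2 and Tnni3 were called higher. Their summed FPKM was 1647 to 8929 in group MI and 7222 to 15539 with DAPA, and without MI replicate 2 their median was 0.76 with 0 called. Their part in the values of the T cell receptor genes was not tested.

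Group MI + DAPA (1st d) was then set against group Sham, to see what remained of the change under treatment. Of the 7 genes tested, limma called 0, and 0 had an unadjusted p under 0.05, also with voom on the recovered reads. Cd247, called in MI vs. Sham, did not reach the filter here, nor did Cd5 and Cd28. Without the filter Cd247 was higher by 0.52 (SE 0.21, unadjusted p = 0.0442 and Benjamini-Hochberg adjusted p = 0.164 by limma). With voom it was higher by 1.47 (SE 0.87). Over all 13359 genes tested, 9.54% were called higher and 8.16% lower. The log2 fold changes were 0.39 for Cd3e (SE 0.38), 0.30 for Cd3d (SE 0.52), 0.04 for Cd8a (SE 0.50), -0.15 for Lck (SE 0.44), -0.29 for Cd3g (SE 0.26), -0.34 for Zap70 (SE 0.41) and -0.66 for Cd2 (SE 0.30). The Benjamini-Hochberg adjusted limma p-values ran from 0.136 (Cd2) to 0.963 (Cd8a). The signs for Cd3d, Cd8a, Lck, Cd3g, Cd2 and Zap70 turned under at least 1 other scaling or with 1 rat left out. No difference was detected for any of the 7 genes at this depth and group size. The SEs of Cd3d, Cd8a, Lck and Zap70 were as large as or larger than their changes. Among the 9 genes with reads in group Sham, the groups did not overlap, with the DAPA-treated rats higher, in Cd247 (23.2% of all genes tested). With them lower, they did not overlap in Cd2 (23.3% of all genes tested).

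The balance between the chains of the complex was read from the reads within a rat, where library size cancels. Cd3e took 53.8%, 58.4% and 59.7% of the reads on Cd3e and Cd3g together in the MI rats. In the Sham rats it took 15.0% (95% exact binomial interval 3.21% to 37.9%), 42.0% (28.2% to 56.8%) and 5.26% (0.133% to 26.0%). In the DAPA-treated rats it took 26.3% (13.4% to 43.1%), 63.3% (48.3% to 76.6%) and 43.5% (31.6% to 56.0%). All MI rats lay above all Sham rats in this share. However, the intervals of MI replicate 1 (43.1% to 64.4%), MI replicate 2 (55.1% to 61.7%) and MI replicate 3 (53.0% to 66.2%) each overlapped that of Sham replicate 2. The DAPA-treated rats spanned most of the range of both groups. The share of Cd3d in the reads of Cd3d and Cd3g did not separate these groups. It was 0%, 44.2% and 18.2% in the Sham rats, 31.1%, 37.5% and 40.5% in the MI rats and 45.1%, 51.4% and 17.0% in the DAPA-treated rats, so that Sham replicate 2 lay above all MI rats. These shares are of reads, not corrected for gene length, and are compared only between rats.

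**Figure D3:**
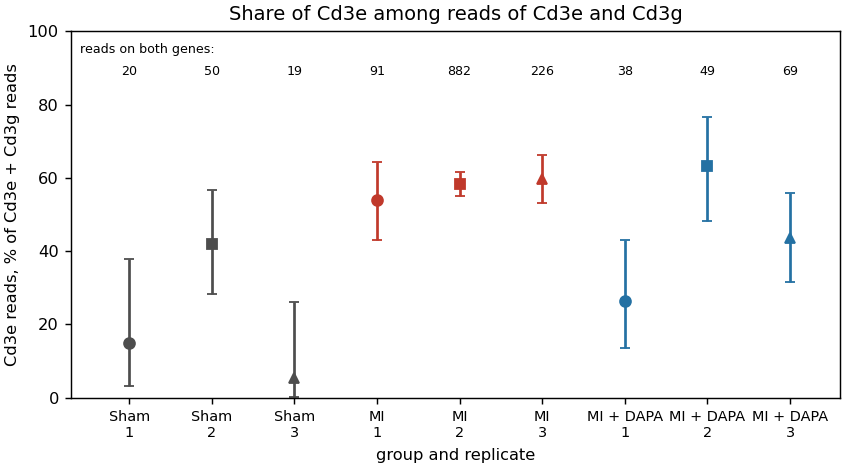
Cd3e reads as a percentage of the reads on Cd3e and Cd3g in each rat, with 95% exact (Clopper-Pearson) binomial intervals that cover counting error only, and the number of reads on both genes above each point. The 3 MI rats sit at 53.8% to 59.7%, above the 3 Sham rats, and the DAPA-treated rats range from 26.3% to 63.3%.

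The share of Cd3e in the reads of Cd3e and Lck showed the same order, at 24.1%, 36.8% and 33.9% in the MI rats and 3.49%, 13.7% and 4.17% in the Sham rats. In the DAPA-treated rats it was 9.09%, 34.1% and 16.0%, which overlapped with group MI. The share of Cd247 in the reads of Cd247 and Lck was 18.9%, 22.4% and 22.6% in the MI rats and 6.74%, 7.69% and 4.17% in the Sham rats. In the DAPA-treated rats it was 24.8%, 28.6% and 11.7%. Relative to Lck, Cd3e and Cd247 thus stood higher in every MI rat than in every Sham rat, but not beyond the counting error of each pair of rats. For Cd3e the interval of MI replicate 1 (18.4% to 30.6%) overlapped that of Sham replicate 2 (8.70% to 20.2%) and that of Sham replicate 3 (0.105% to 21.1%). For Cd247, on 6, 11 and 1 reads in the Sham rats, the interval of MI replicate 1 (13.6% to 25.3%) overlapped those of Sham replicate 1 (2.51% to 14.1%) and Sham replicate 3 (0.105% to 21.1%). Cd3e and Cd247 are also the genes called in MI vs. Sham, so these shares are no independent evidence. In 2 of the DAPA-treated rats Cd247 lay above all MI rats.

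Ptprc, which encodes CD45, the phosphatase carried by all white blood cells that keeps Lck active, was at 3.44, 4.94 and 3.67 FPKM in the Sham rats, at 8.37, 33.1 and 11.2 FPKM in the MI rats and at 7.65, 4.38 and 9.99 FPKM in the rats given DAPA. The MI rats lay above the Sham rats without overlap (log2 fold change 1.66, SE 0.46, Benjamini-Hochberg adjusted p = 0.0263 by limma), and DAPA vs. MI was not called (-0.98, SE 0.50). The summed FPKM of Cd3d, Cd3e and Cd3g per FPKM of Ptprc was 0.820, 1.83 and 1.10 in the Sham rats, 0.786, 2.13 and 1.51 in the MI rats and 0.666, 1.08 and 0.522 in the DAPA-treated rats. Measured against this leukocyte gene, the CD3 genes overlapped between all 3 groups. Lck per FPKM of Ptprc was 1.11, 1.25 and 0.343 in the Sham rats, 0.459, 0.729 and 0.592 in the MI rats and 0.382, 0.411 and 0.421 in the DAPA-treated rats, so that all DAPA-treated rats lay below all MI rats and 2 of the Sham rats lay above all MI rats.

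Cd4 and Cd8b, the other coreceptor genes, were both called in both comparisons with group MI. Over all genes tested, 12.1% were called higher in MI vs. Sham and 1.11% lower in DAPA vs. MI. In DAPA vs. MI Cd8b passed the filter only through group MI. Cd4, which rat macrophages carry as well as helper T cells, was at 4.75, 1.06 and 1.43 FPKM in the Sham rats, at 48.3, 124 and 53.8 FPKM in the MI rats and at 23.1, 26.0 and 51.5 FPKM in the rats given DAPA. It was higher in MI vs. Sham by 4.51 on the log2 scale (SE 0.48, Benjamini-Hochberg adjusted p = 0.00134 by limma), and its change in DAPA vs. MI was -1.10 (SE 0.44, adjusted p = 0.558). Macrophage markers moved with it: 10 of 10 were found, and 9 of 10 were called higher in MI vs. Sham (12.1% of all genes tested). The summed FPKM of these markers was 106 to 227 in group Sham, 836 to 1581 in group MI and 442 to 968 in group MI + DAPA (1st d). Their part in the Cd4 values was not tested. Cd8b, the CD8 beta chain, was at 1.17, 0.796 and 0.309 FPKM in the Sham rats, at 1.16, 6.51 and 2.24 FPKM in the MI rats and at 0.536, 0.551 and 0.941 FPKM in the rats given DAPA. Its log2 fold change was 1.12 in MI vs. Sham (SE 0.46, Benjamini-Hochberg adjusted p = 0.0940 by limma) and -1.17 in DAPA vs. MI (SE 0.44, adjusted p = 0.558). Cd8b lost its call in MI vs. Sham without MI replicate 2 (0.62) and with voom (1.72, SE 1.03), where Cd4 and Ptprc were the genes of this list called. In DAPA vs. MI both calls were lost without MI replicate 2, with 2 genes of this list tested and 0 called. With voom 1 of the 4 genes of this list tested there was called lower, Cd4 and not Cd8b (1.75% of all genes by voom).

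Of 43 genes listed for proximal T cell receptor signalling, 40 were found. In MI vs. Sham 29 were tested, with 4 called higher (Vav1, Sla, Ptpn6 and Was) and 4 called lower (Dgkz, Plcg1, Dgka and Malt1), shares near the 12.1% and 10.3% of all genes tested. The median log2 fold change was 0.44, and without MI replicate 2 it was 0.01. Vav1, an exchange factor downstream of ZAP-70, was higher by 1.81 (Benjamini-Hochberg adjusted p = 0.00986 by limma), and Sla, an adaptor that limits receptor signalling, was higher by 1.81 (adjusted p = 0.00252). Plcg1, the phospholipase recruited by LAT, had a log2 fold change of -1.77 (adjusted p = 0.00132) and stood at 95.1 to 131 FPKM in the Sham rats and 25.5 to 35.1 FPKM in the MI rats. Dgkz, a diacylglycerol kinase that shortens the signal, had one of -2.01 (adjusted p = 0.000953). Plcg1 and Dgkz are known to be made by many cells besides lymphocytes. In DAPA vs. MI limma called 0 of 31 genes tested, and 27 had a log2 fold change below 0. The median was -0.37, and without MI replicate 2 it was -0.11. With all 6 rats and no fold-change threshold 3 passed, all lower, where 3.9% of all genes did: Sla (-0.80, SE 0.23), Cblb (-0.41, SE 0.13) and Sh2d2a (-0.98, SE 0.38). With voom on the recovered reads 2 of 38 genes were called lower, Sh2d2a among them, where voom called 1.75% of all 15172 genes lower.

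Of 23 genes for costimulatory and checkpoint receptors and their ligands, 22 were found, and Pdcd1, the gene of PD-1, was listed at 0 in all 9 rats. Limma tested 9 in MI vs. Sham and called Cd86, a ligand of CD28 on antigen-presenting cells, higher (1.66, Benjamini-Hochberg adjusted p = 0.00180) and Pdcd1lg2, a ligand of PD-1, lower (-2.79, adjusted p = 0.000975). In DAPA vs. MI limma called 0 of 8. Without the fold-change threshold 1 passed, Pdcd1lg2, higher by 0.60 (SE 0.23), where 4.59% of all genes were higher in that way. Voom called 2 of 19 lower, Ctla4 and Tigit (1.75% of all genes by voom). Both reached the 10 reads that voom required in 3 rats only through group MI, where they were high. With DAPA, Ctla4 was at 0.0644, 0 and 0.205 FPKM and Tigit at 0, 0.0756 and 0.202 FPKM.

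Of 28 T cell subset and effector genes, 27 were found. In MI vs. Sham limma tested 16 and called 6 higher and 1 lower (12.1% and 10.3% of all genes tested). Among those called higher were Ikzf1, a transcription factor of lymphoid cells (1.92), and the chemokine receptors Cxcr6 (1.76) and Cxcr3 (1.70). Of these 3, Ikzf1 passed a Benjamini-Hochberg adjusted limma p of 0.05 (adjusted p = 0.0139), and Cxcr6 and Cxcr3 did not (adjusted p = 0.0617 and adjusted p = 0.0927). Ikzf1, under 1 FPKM in every Sham rat, passed the filter only through group MI. S1pr1, a receptor that T cells use to leave lymphoid tissue and that endothelium makes in quantity, was the gene called lower (-1.22, adjusted p = 0.0130), beside endothelial markers that were called lower in 4 of the 4 found. In DAPA vs. MI limma tested 16 and called 4 lower and 0 higher (1.11% and 0.951% of all genes tested). Ccr7, the homing receptor of naive T cells and mature dendritic cells, was at 2.21, 5.88 and 3.11 FPKM in the MI rats and at 0.638, 0.917 and 0.775 FPKM in the rats given DAPA, without overlap (-1.34, SE 0.29, Benjamini-Hochberg adjusted p = 0.558 by limma). It passed the filter only through group MI, where it was high. Il7r, the survival receptor of resting T cells, was at 1.54, 3.96 and 2.09 FPKM in the MI rats and at 0.221, 0.589 and 1.17 FPKM in the rats given DAPA, again without overlap (-1.07, SE 0.33). The other 2 called lower were Cxcr6 and Ccl5. Without MI replicate 2, 0 of 15 were called in either direction.

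Markers of B cells, plasma cells and macrophages were mostly highest in MI replicate 2, those of macrophages in 8 of 10. Highest there too were 7 of 10 markers of lymphoid follicles and lymphoid stroma and 4 of 6 fibroblast markers. NK cell markers were highest there in their sum and in their mean log2(FPKM + 1), though not in most single genes. Dendritic cell markers were not so placed. B cell markers, of which 7 of 8 were found, were highest in MI replicate 2 in 7 of 7, and their summed FPKM was 6.12 to 8.19 in group Sham, 18.5 to 79.6 in group MI and 9.04 to 18.1 in group MI + DAPA (1st d). Plasma cell markers, all 7 of them found, were highest in MI replicate 2 in 6 of 7, with sums of 37.0 to 45.8, 118 to 3951 and 55.5 to 87.0 FPKM in the same order of groups. Markers of lymphoid follicles and lymphoid stroma, all 10 of them found, summed to 116 to 266, 492 to 1427 and 356 to 678 FPKM. NK cells use Lck, Zap70, Cd2 and Cd247 as T cells do. Their markers were found for 6 of 7 genes, with sums of 7.71 to 17.3, 10.5 to 36.7 and 4.98 to 19.99 FPKM, and were highest in MI replicate 2 in 3 of 6. Dendritic cell markers, 6 of 6 found, summed to 16.3 to 22.3, 12.3 to 16.4 and 9.95 to 16.1 FPKM, with MI replicate 2 the lowest of the MI rats. Thymocyte markers stayed under 1 FPKM in every rat, with Rag2 at 0 in all, so the defining genes of thymus were at or near 0. The part of B cells, plasma cells or sampled lymphoid tissue in the values of the T cell receptor genes was not tested.

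**Figure D4:**
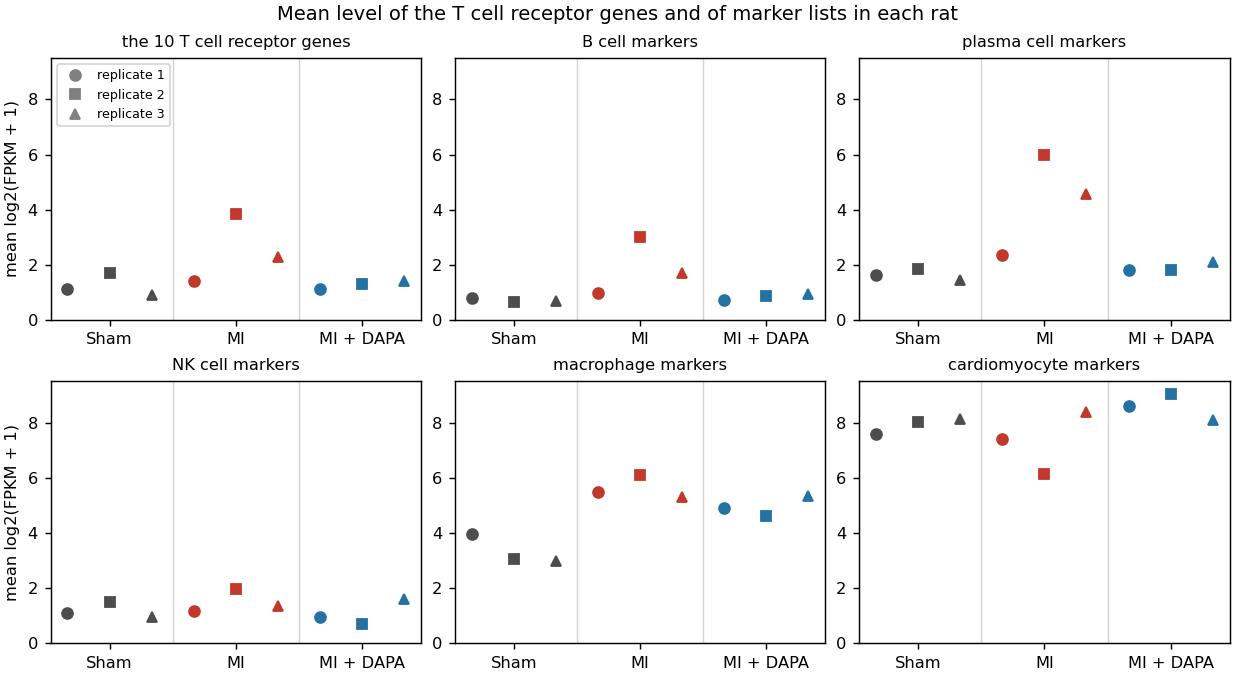
Mean log2(FPKM + 1) over the 10 T cell receptor genes and over marker lists of 5 cell types in each rat, by group, with 1 symbol per replicate. MI replicate 2 (red square) is highest for the T cell receptor genes and for B cell, plasma cell, NK cell and macrophage markers. It is lowest for cardiomyocyte markers, whose summed FPKM there was 1647 against 4945 to 15539 in the other 8 rats.

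Likeness to the 10 genes was described by the Pearson correlation, over 9 rats, of each gene's log2(FPKM + 1) with the mean z-score of the 9 members that reach an FPKM of 1 in 3 rats. The rats share 3 groups and MI replicate 2 dominates the score, so the coefficients are a description of these libraries and carry no p. Of 13070 named genes ranked, the 10 most alike were Irf4 (r = 0.989), Cxcr6 (0.979), Ms4a4c (0.975), Tent5c (0.973), Hcst (0.973) and 5 genes with clone-based names only, led by AABR07051532.2 (0.989). Irf4, a transcription factor of activated lymphocytes and plasma cells, was at 10.6 FPKM in MI replicate 2 and at 0.236 to 2.21 FPKM in the other 8 rats. AABR07051532.2 was at 397 FPKM in MI replicate 2 and at 8.48 FPKM or less in the other 8 rats. Among the 10 genes themselves, the correlation of each with the mean of the others was 0.741 (Cd28) to 0.971 (Cd3e) over 9 rats, and 0.181 (Cd28) to 0.919 (Cd3e) over the 8 rats without MI replicate 2. Cd3e was thus the gene closest to the others in both cases, and Cd28 and Cd2 (0.369 without MI replicate 2) the least close.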

How the data were processed

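Total RNA of left ventricles from 9 rats was made into poly-A selected libraries and sequenced by the authors. The deposited FPKM values had been divided by gene length and by a denominator for each library by the authors, 1 column per rat. How that denominator was set is not given in the sources used here, and it did not follow the total of recovered reads. The submitters' processing notes name HISAT2 2.0.5, StringTie 1.3.3b, featureCounts 1.5.0-p3 and DESeq2 without their roles. The genome build of the files and the strand setting of the counting are not given in the sources used here, so reads of antisense partners cannot be told apart. Columns of per-sample values left unused numbered 0.

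Each gene moves in steps of what 1 read is worth: 18896 of the 18896 genes seen in at least 4 rats gave whole reads (tolerance 0.002), and 99.6% of simulated reads came back exactly. The precision of a value follows from these reads. Since they carry no molecular identifiers, intervals (95%, exact binomial) and floors (3 reads) cover counting error only.

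Groups were compared with limma 3.58.1 in R 4.3.3 on log2(FPKM + 1), empirical Bayes with trend, the 2 groups of a comparison only, over all genes that reached an FPKM of 1 in 3 or more of the 6 rats. FPKM are not counts, so no count model was the main test. Genes were called at an unadjusted p below 0.05 with a log2 fold change beyond 1 in size, as in the study's criteria, with Benjamini-Hochberg adjustment over all genes tested. On data simulated for MI vs. Sham (13657 genes), 94.5% of 200 genes changed 4-fold were called, 0 in the wrong direction. Of the unchanged genes, 66 were called too. That rate cannot be read as the sensitivity for the T cell receptor genes, which spread far more within group MI than most genes. Their ratio of highest to lowest MI rat was 6.05 to 15.1, against a median of 1.41 over all genes. Cd3g and Cd3d, with group means in FPKM 4.27-fold and 6.19-fold apart, were not called. Alternatives were another pseudocount (0.1), other filters, the replicate block, all 9 rats in 1 fit, the mitochondrial genome left out, adjusted p, no fold-change threshold and each rat left out. Scaling to all recovered reads and voom on them were added after seeing the data.

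The genes and lists were chosen with earlier results of these data known. All 10 genes are named. Of each list the text names at most 3 genes by smallest p under 0.05 in DAPA vs. MI, at most 4 by largest change called in MI vs. Sham, and Ptprc, Cd4 and Cd8b. Ptpn6, Was, Dgka, Malt1, Ctla4, Tigit, Pdcd1 and Ccl5 were named after their values were seen. Some genes that the rule would name are not reported here. Names of Trac, Trbc1, Trbc2, Trdc, Trgc1 and Trgc2 found no match and were not analysed here. The labels call the 3 rats of a group biological replicates. Promoter windows are RefSeq's (GRCr8). Python 3.11.15 served for recovery of reads and plots.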

Additional observations from a re-analysis of the deposited data

How the results depend on the processing

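In MI vs. Sham 2 genes were called, and the count stayed within 1.5 times of that with the other pseudocount, the filters, the mitochondrial genome left out, all 9 rats in 1 fit, adjusted p and no fold-change threshold. Scaled to all recovered reads, 8 genes were called, where 6099 of all 13535 genes tested were called higher. This scaling moves the median of all genes by 0.92. Relative to that median the 8 genes stood at 0.52 to 1.82. With voom on the recovered reads the count was 1 (Cd28), where voom called 2015 of all 14914 genes higher. Cd28 reached the 10 reads that voom required in 3 rats only through group MI, where it was high. It had 0, 0 and 9 reads in the Sham rats. With single rats left out the count ranged from 0 (without Sham replicate 3) to 6 (without MI replicate 1), and was 1 without Sham replicate 1, MI replicate 2 or MI replicate 3. Without MI replicate 1, 1421 of all 12958 genes tested were called higher. In DAPA vs. MI 1 gene was called, against 2 with a pseudocount of 0.1, 4 with all 9 rats in 1 fit, 4 with the mitochondrial genome left out, 6 scaled to all recovered reads (median of all genes -0.21), 0 with voom and 0 with adjusted p. Over all genes, 224 of 13251 were called lower with that pseudocount and 156 of 13251 with all 9 rats in 1 fit. With the mitochondrial genome left out 182 of 13206 were, and scaled to all recovered reads 296 of 13870. With single rats left out the count ranged from 0 (without MI replicate 3 or any 1 DAPA rat) to 8 (without MI replicate 1, where 238 of all 12969 genes were called lower). The cause of these differences was not tested. No change of a gene in these 2 comparisons turned its sign under the alternatives run. In DAPA vs. Sham 0 were called under every alternative run, and these signs turned: Cd3d at -0.16 without Sham replicate 1 (0.56 at most with 1 rat left out); Cd8a at -0.031 with the mitochondrial genome left out, -0.028 with voom, and -0.52 (without Sham replicate 3) to 0.57 with 1 rat left out, -0.055 without DAPA replicate 3; Lck at -0.61 to 0.22 (without Sham replicate 2), 0.079 without DAPA replicate 2. Scaled to all recovered reads (median of all genes 0.74), Cd3g turned to 0.36, Cd2 to 0.019, Lck to 0.47 and Zap70 to 0.14.

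The labels do not say that equal replicate numbers mark a shared litter or day. Deviations of same-numbered rats from their group means correlated at -0.00, -0.01 and 0.07 in MI vs. Sham, at 0.03, -0.32 and -0.26 in DAPA vs. MI and at 0.12, 0.20 and -0.01 in DAPA vs. Sham, and not every rat correlated best with its own number. With the replicate block 5 genes were called in MI vs. Sham (Cd3d, Cd3e, Cd3g, Cd247 and Lck), 3 in DAPA vs. MI (Cd3e, Cd2 and Zap70) and 0 in DAPA vs. Sham. Over all genes the block gave 1658 of 13485 called higher in MI vs. Sham and 146 of 13251 called lower in DAPA vs. MI. Low read counts limit Cd5, Cd28 and, in group Sham, Cd3d, Cd3e and Cd247.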
